A study of Mus musculus with 32 samples.

Results

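The clustered histone genes are the replication-dependent histone genes of the mouse, named by the genomic cluster they lie in (Hist1h, Hist2h, Hist3h and Hist4h) and by the protein they encode. Members were the rows of the deposited gene count table with these names that held at least 20 counts summed over all libraries. Of 68 such rows among 24421 genes, 67 were members: 5 H1, 18 H2a, 19 H2b, 12 H3 and 13 H4 genes. Just outside the minimum was Hist1h1t with 6 counts, and just inside were Hist1h2bq with 20, Hist1h2aa with 43, Hist1h4m with 44 and Hist1h2br with 72. Of the members, 53 lie on chromosome 13, 10 on chromosome 3, 3 on chromosome 11 and 1 (Hist4h4) on chromosome 6. The rule also took in Hist3h2bb-ps, which is annotated as a processed pseudogene. RNA was sequenced from 8 bone marrow fractions of female C57BL/6 mice, young at 10 weeks and aged at 20 months, with 2 libraries in each of 16 groups and 32 in all. No allele or treatment separated the groups, so age and surface phenotype were the only differences the labels give.

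Hematopoietic stem cells (HSCs) were sorted as lineage-negative, Sca-1+ c-kit+ cells that were CD34-, CD150+, CD48- and Flt3-. Among the multipotent progenitors (MPPs), which were Sca-1+ c-kit+ and CD34+, MPP1 was CD150+ CD48- Flt3-, MPP2 CD150+ CD48+ Flt3-, MPP3 CD150- CD48+ Flt3- and MPP4 Flt3+. Granulocyte-macrophage progenitors (GMPs) were c-kit+ Sca-1- FcgR+ CD34+, megakaryocyte-erythrocyte progenitors (MEPs) c-kit+ Sca-1- FcgR- CD34-, and common lymphoid progenitors (CLPs) had low Sca-1 and low c-kit and were labelled IL-7+, where the antibody recognised the IL-7 receptor. Marrow was pooled by age before sorting in one account of the study, so the errors and p-values below measure the spread between duplicates and may not cover the variation between mice. Total counts per library ran from 11237384 to 17723245. Transcripts of the sort antigens followed the sort in part. Il7r lay between 151 and 185 CPM (counts relative to the library total, scaled to 1e6) in the 4 CLP libraries and at most at 16.1 elsewhere, and Cd34 was at most at 0.623 CPM in MEP libraries. Ly6a, which encodes Sca-1, was at 33.0 and 34.1 CPM in young CLPs but at 204 and 199 in aged ones, close to the 214 and 217 of young MPP3. Flt3 was at 280 and 315 CPM in young MPP3, which was sorted as Flt3-, against 1131 and 1123 in young MPP4.

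Replication-dependent histones package newly made DNA, and their genes are switched on together as cells enter S phase. H2A, H2B, H3 and H4 form the core of the nucleosome and H1 binds the linker DNA between nucleosomes. Their mRNAs are unusual in ending at a conserved stem-loop bound by the stem-loop binding protein Slbp, in place of a poly(A) tail. The SMARTer libraries were primed with oligo-dT, so a count reports whichever transcripts of a gene were primed, such as a tailed minority, and not the total histone mRNA of the cell. In bulk samples, more cells in cycle and more histone mRNA per cycling cell cannot be told apart.

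The 16-base stem-loop was found in the annotated transcripts of 43 of the 67 members (3 H1, 11 H2a, 10 H2b, 8 H3 and 11 H4), against 68 of 21901 protein-coding genes (0.310%), members included. Some of the 24 members without it had short models, such as Hist1h4k with 312 bases and Hist1h2ai with 393. Its absence from a model therefore does not show that the gene lacks it. It lay 21 to 58 bases after the stop codon, with a median of 31.0. Of the 43 members, 21 had over 100 annotated bases beyond the hairpin, a stretch in which a tail could be added, and 22 had 100 or fewer. Of 6 forms of the hairpin, 5 are shown because they mark the 3′ end of these mRNAs, and the form left out was held by Hist1h4b and Hist1h4j. Capitals mark the hairpin, read 5′ to 3′ on the coding strand of GRCm38. The first was the most frequent form, held by 26 members, and is shown for Hist1h2ag at chr13:22042478-22042503 (minus strand). The other members shown are Hist4h4 at chr6:136803993-136804018 (minus strand), whose hairpin 7 members shared, Hist1h3c at chr13:23745042-23745067 (minus strand), whose form 5 members held, Hist1h4i at chr13:22040961-22040986 (minus strand), with a form held by 2, and Hist2h2ac at chr3:96220413-96220438 (minus strand), the only member with its form.
Hist1h2ag: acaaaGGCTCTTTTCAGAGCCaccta
Hist4h4: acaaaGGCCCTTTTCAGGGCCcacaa
Hist1h3c: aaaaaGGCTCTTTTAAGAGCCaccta
Hist1h4i: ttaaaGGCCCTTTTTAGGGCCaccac
Hist2h2ac: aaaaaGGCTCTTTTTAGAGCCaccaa

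Members of one subfamily are near-identical in their coding parts, and reads were 60 bases long. A window of 60 bases was called shared when it occurred in a transcript of another annotated gene. Over 50% of windows were shared in 32 members, all of them in 5, and none in Hist1h1a, Hist1h1b and Hist2h2be. The median share was 72.5% in H2a, 61.5% in H3, 41.7% in H2b, 31.6% in H4 and 1.90% in H1. The windows carried by the most members of H2a, H3 and H4 are shown because a read from them cannot be assigned to one gene. The H2a window occurred in 15 members and is given at its place in the coding exon of Hist1h2ap (chr13:21833239-21833298, minus strand). The H3 window occurred in all 12 H3 members (Hist1h3d, chr13:23575955-23576014, plus strand), and the H4 window in 11 (Hist1h4d, chr13:23581770-23581829, plus strand).
H2a window: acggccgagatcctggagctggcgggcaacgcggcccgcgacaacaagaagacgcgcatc
H3 window: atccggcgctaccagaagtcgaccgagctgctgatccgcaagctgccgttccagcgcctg
H4 window: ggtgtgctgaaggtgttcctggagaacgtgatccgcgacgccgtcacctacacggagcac

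RefSeq promoters (GRCm38.p6, spanning the transcription start) were matched for 60 members. The octamer ATTTGCAT, the binding site of Oct-1, was present on either strand in 7 of 17 H2a and 6 of 16 H2b promoters and in no other member, against 1.74% of 32851 promoters. CCAAT, the site of NF-Y, was present in every H1, H2a, H2b and H3 promoter matched but in 3 of 12 H4 promoters, against 37.4% of all. TATAAA was found in 35 of the 60, against 13.6% of all. The 150 bases before the start are shown for members with 3 of the arrangements, with octamer, CCAAT and TATAAA matches in capitals on either strand. Other arrangements, such as CCAAT alone in some H3 promoters, are not shown. Hist1h2ac (chr13:23683960-23684109, minus strand) had all 3 motifs, Hist1h1b (chr13:21780626-21780775, minus strand) had CCAAT and TATAAA, and Hist1h4i (chr13:22041363-22041512, minus strand) had TATAAA alone. The TATAAA of Hist1h4i lay near the upstream end of the stretch, and those of Hist1h2ac and Hist1h1b near the start of transcription.
Hist1h2ac: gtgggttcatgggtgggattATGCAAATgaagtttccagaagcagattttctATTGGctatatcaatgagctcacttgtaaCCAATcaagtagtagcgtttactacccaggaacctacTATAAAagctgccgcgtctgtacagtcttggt
Hist1h1b: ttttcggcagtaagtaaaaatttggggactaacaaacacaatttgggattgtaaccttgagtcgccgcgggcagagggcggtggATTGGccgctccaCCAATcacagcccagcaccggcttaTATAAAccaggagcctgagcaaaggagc
Hist1h4i: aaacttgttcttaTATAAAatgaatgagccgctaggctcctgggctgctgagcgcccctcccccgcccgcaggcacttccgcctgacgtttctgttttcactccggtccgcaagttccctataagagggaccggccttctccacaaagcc

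The members together held 681316 counts, 0.0560% to 0.307% of a library. H2a genes carried 80.2% of them, H1 10.1%, H4 5.70%, H2b 2.95% and H3 1.12%. The H2a share ran from 61.3% to 85.0% over the 32 libraries. Per length of exon the leading gene was Hist1h2ap with a mean level of 596 CPM per kb, which alone held 18.7% of member counts, followed by Hist1h2ag with 264 and Hist1h2ai with 209. In the other subfamilies the leading levels were 51.0 CPM per kb for the linker histone Hist1h1b, 49.0 for Hist1h4d, 9.07 for Hist1h2bc and 3.78 for Hist1h3i. H2a counts thus exceeded those of every other subfamily in each library, although the core histone proteins are used in equal amounts.

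In young mice the summed level of all members was lowest in HSCs, at 560 and 565 CPM in the 2 libraries. It was 975 and 992 in MPP1, 1158 and 1135 in MPP3, 1293 and 1096 in GMPs, 1242 and 1378 in MPP4, 1625 and 1880 in MPP2, 1848 and 1958 in MEPs, and 1960 and 2045 in CLPs. HSCs and MPP1 stood below every later fraction, whereas the libraries of MPP3 and GMPs, of GMPs and MPP4, and of MPP2 and MEPs overlapped. CLPs lay above MEPs by no more than the duplicates differed. In aged mice the order differed: HSCs were again lowest (681 and 801), and MPP2 was highest (3065 and 2751), followed by MPP4 (2552 and 2028) and MPP3 (2292 and 2016), which overlapped. In aged mice MEPs (1656 and 1129), CLPs (1149 and 1280) and GMPs (1263 and 1351) overlapped, all below MPP1 (1863 and 1810). All these sums were scaled by library totals alone. The factors that correct these totals in the fit (TMM) ran from 0.807 in the first young GMP library to 1.113 in the first young MPP1 library. Applying them would raise GMPs, MEPs and CLPs relative to HSCs and MPPs, so ranks and overlaps between fractions depend on the scaling.

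**Figure D1:**
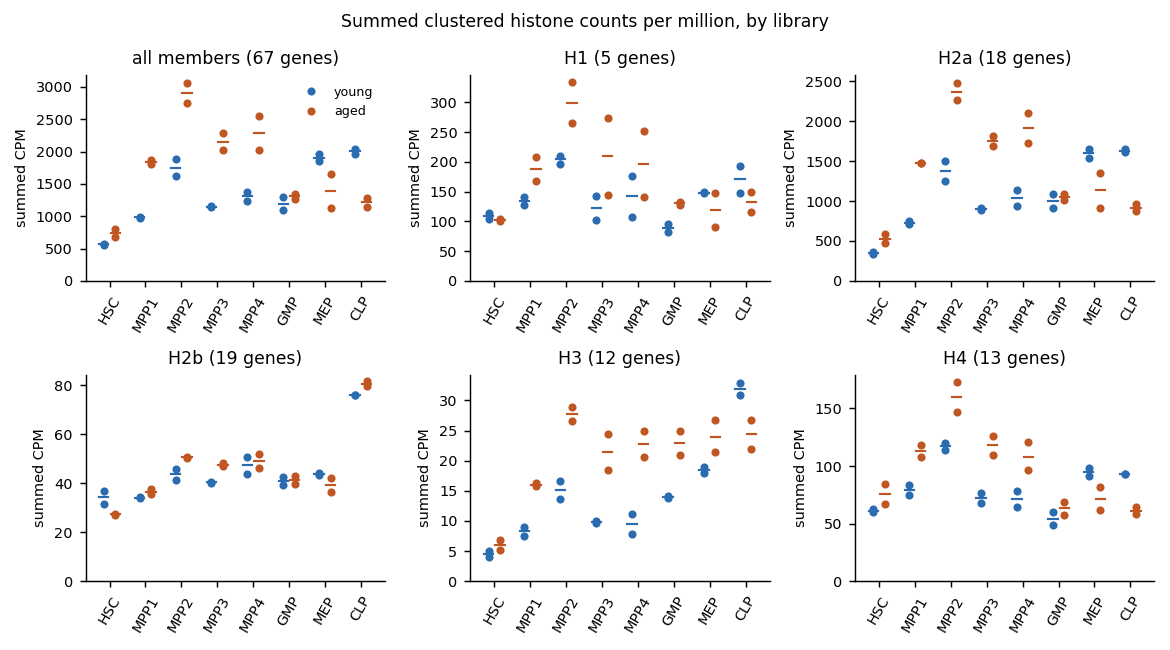
Summed CPM of the members of each subfamily (vertical axes, linear from 0) in the 8 fractions, with 1 point per library and a short bar at the mean of the 2 libraries. Aged H2a sums lay above the young ones in HSCs and MPP1 to MPP4 and below them in MEPs and CLPs, while H2b sums stayed between 27.2 and 51.9 CPM outside CLPs in both ages.

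Across the 8 young fractions, 58 of the 64 members that passed the filter on low counts differed in a quasi-likelihood F-test of edgeR (Benjamini-Hochberg adjusted p under 0.01), beside 86.9% of all 14154 genes tested. Hist1h2aa, Hist1h2bq and Hist1h4m did not pass the filter. Hist1h1b, an H1 gene with no shared window, was measured at 5.78 and 7.31 CPM in young HSCs and at 67.5 and 56.5 in young MPP2, its highest young fraction (adjusted p 8.63e-04). Hist1h2ag was at 30.0 and 32.1 CPM in young HSCs and at 176 and 184 in young MEPs (adjusted p 2.02e-11). Hist1h1c, another linker histone, followed another order, with 34.6 and 30.6 CPM in young HSCs, 33.1 and 37.1 in CLPs and 16.8 and 15.6 in GMPs (adjusted p 1.82e-05). Hist2h2be had its highest young level in CLPs (23.2 and 19.2 CPM) and its lowest in GMPs (3.34 and 6.94). Hist1h2bc was highest in young GMPs at 17.3 and 17.5 CPM and lowest in MPP1 at 7.07 and 7.32 (adjusted p 6.38e-08).

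Over the 32 libraries, log2 CPM of Hist1h2ag correlated with Hist1h1b at r = 0.84, with Hist1h1a at 0.72, with Hist1h4d at 0.61, with Hist1h1c at -0.15, with Hist2h2be at 0.09 and with Hist1h2bc at 0.1. These are descriptions, since libraries of one group share their cells and all were scaled by their own totals. The values of Hist1h1c, Hist2h2be and Hist1h2bc were near 0 and that of Hist1h1b was the highest of these.

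How the members differed with age was asked in each fraction. In aged HSCs the summed level was 1.32 times that of young HSCs, a log2 difference of 0.4 with an SD of 0.16 from the spread of duplicates. Over the members with at most 50% of windows shared it was 0.17. The H2a sum was 477 and 582 CPM in aged against 343 and 363 in young HSCs, and the H2b sum 27.3 and 27.2 against 36.9 and 31.6, so H2a lay higher and H2b lower without overlap. Of 64 members, 11 were called higher, beside 3.74% of all genes called higher and 1.66% called lower. All 11 were H2a genes, and DESeq2 called 11 as well. An unadjusted p under 0.05 was found for 18 members, with the share of all genes at that p not counted. The median log2 fold change was 0.81 over the 17 tested H2a genes, 0.34 over all members and 0.02 over all genes tested. Hist1h2ag was at 45.9 and 59.0 CPM in aged HSCs (log2 fold change 0.81, SE 0.162, adjusted p 0.00205), above both young libraries. The smallest adjusted p was that of Hist1h2ab, with a log2 fold change of 0.85. These calls depended on the library left out: 1 member was called without the first young library, 0 without the second young or the second aged library, and 11 without the first aged library. A fit of the 4 HSC libraries alone called 0. Neutrophil markers moved in the same comparison (5 of 5 called higher, summed level 59.8 and 63.4 CPM in young and 293 and 308 in aged HSCs), as did 3 of 4 basophil and mast cell markers (1.78 and 1.05 against 10.3 and 17.4). Their part in the histone difference was not tested.

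In the MPPs the age difference was larger. The summed level was 1.87 times higher in aged MPP1, 1.66 times in MPP2, 1.88 times in MPP3 and 1.75 times in MPP4, with log2 differences of 0.9, 0.73, 0.91 and 0.81 and SDs of 0.03, 0.19, 0.13 and 0.26. In each of these fractions both aged libraries lay above both young ones. The H2a sum alone was 707 and 747 CPM in young and 1483 and 1483 in aged MPP1. In MPP2 it was 1246 and 1500 against 2479 and 2262. It was 890 and 914 against 1821 and 1695 for MPP3, and 939 and 1140 against 2103 and 1725 for MPP4. No p-value is given for a sum over members.

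Of 64 members, 14 were called higher in aged MPP1 (4.71% of all genes higher, 2.09% lower) and 12 in aged MPP2 (4.49% and 3.31%). The count was 18 for MPP3 (8.14% and 5.79%) and 21 for MPP4 (10.3% and 6.27%). All member calls by edgeR in these fractions were in the higher direction, while DESeq2 called 1 H2a gene lower in MPP4. Over MPP1 to MPP4 in turn, the median log2 fold change of the members was 0.9, 0.81, 0.91 and 0.95, with medians of all genes between -0.04 and 0. Among the calls, 13, 12, 14 and 13 were H2a genes. Without the first young MPP2 library the count in MPP2 was 0, and without the first aged one it was 6. Without the first young MPP1 library the count in MPP1 was 9. Without the second young MPP3 library it was 11 in MPP3. In MPP4 it was 12 and 13 without either young library and 11 without the first aged one.

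Hist1h2ag, a canonical H2A gene, was at 71.1 and 75.9 CPM in young and 155 and 153 in aged MPP1 (log2 fold change 1.11, SE 0.152, adjusted p 4.31e-05). It was at 96.4 and 119 CPM in young and 218 and 188 in aged MPP4 (log2 fold change 1, SE 0.150, adjusted p 4.00e-05). The copies Hist1h2ab, Hist1h2ac, Hist1h2ad, Hist1h2ae, Hist1h2af, Hist1h2ah, Hist1h2ai, Hist1h2ak and Hist1h2an were called higher in aged HSCs and in all 4 MPP fractions, with log2 fold changes within 0.78 to 1.14. Their counts moved as one: the ratio of Hist1h2ad to Hist1h2ag stayed between 0.616 and 0.723 over the 32 libraries, and that of Hist1h2ac between 0.761 and 0.872. Since these genes share windows, they are not separate observations.

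Of the 4 H2a genes of the Hist2h cluster on chromosome 3, Hist2h2ab and Hist2h2ac were called in MPPs and the pair Hist2h2aa1 and Hist2h2aa2, which exchanged counts, was not. Hist2h2ac was at 7.67 and 7.77 CPM in young and 18.3 and 13.8 in aged MPP1 (log2 fold change 1.09, SE 0.226, adjusted p 0.00236). Both called genes were higher in all 4 MPP fractions, with log2 fold changes from 0.81 to 1.09. Hist2h2aa1 had values of 1.17, 1.21, 0.44 and 0.07 from MPP1 to MPP4, and Hist2h2aa2 -0.24, -5.21, 0.99 and 7.22. In HSCs Hist2h2ac and Hist2h2ab had values of 0.28 and 0.32, short of the threshold (adjusted p 0.555 and 0.466 by edgeR).

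**Figure D2:**
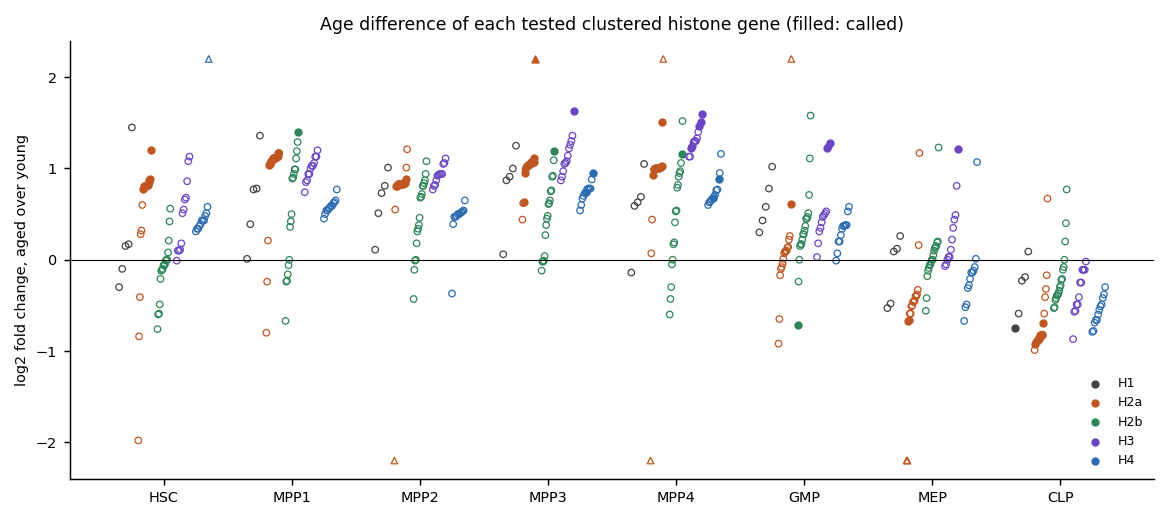
Log2 fold change of aged over young (vertical axis) for each of the 64 tested members in each fraction, coloured by subfamily, with filled points for members called at an adjusted p under 0.01. Values beyond 2.2 in size (8 points) are drawn as triangles at the limit. Filled H2a points sit near 1 in MPP1 to MPP4 and below 0 in CLPs.

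H3 genes had log2 fold changes above 0 for all 12 members in each of MPP1 to MPP4, with medians of 1.01, 0.93, 1.11 and 1.3. Their counts were low, between 0.141 and 4.81 CPM over the 32 libraries, and 1 was called in MPP3 and 5 in MPP4. In MPP1 and MPP2 edgeR and DESeq2 called 0 of the 12 H3 genes, with 10 and 12 at an unadjusted p under 0.05. The share of all genes at that p was not counted, and the H3 genes share windows, so they are not separate observations. Hist1h3a was counted 11 and 8 times in young and 31 and 31 times in aged MPP3 (log2 fold change 1.63, SE 0.379, adjusted p 0.00326). Hist1h3i was counted 15 and 8 times in young and 32 and 27 times in aged MPP4 (log2 fold change 1.47, SE 0.360, adjusted p 0.00422). Hist1h3h did not pass in MPP3 or MPP4, with a log2 fold change of 1.3 in both.

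H4 genes had medians of 0.58, 0.5, 0.76 and 0.7 from MPP1 to MPP4, and Hist1h4d and Hist1h4n were called higher in MPP3 and MPP4. Hist1h4d, in which 7.0% of windows were shared, was at 49.9 and 43.7 CPM in young and 81.2 and 70.1 in aged MPP3 (log2 fold change 0.74, SE 0.171, adjusted p 0.00312). Hist1h4n was at 4.60 and 4.43 CPM in young and 8.55 and 8.40 in aged MPP3 (log2 fold change 0.95, SE 0.196, adjusted p 0.00113). Hist1h4i had log2 fold changes between 0.51 and 0.67 in the 4 MPP fractions and was not called.

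H2b sums differed less, with log2 differences of 0.1, 0.21, 0.24 and 0.05 from MPP1 to MPP4. They were 33.8 and 34.3 CPM in young against 37.7 and 35.4 in aged MPP1, and 40.2 and 40.4 against 46.9 and 48.1 in MPP3. The 3 H2b genes with the highest level per length, Hist1h2bc, Hist2h2be and Hist1h2bg, had log2 fold changes between -0.43 and 0.18 in the MPPs. The median over the 18 tested H2b genes was 0.7, 0.57, 0.55 and 0.53 from MPP1 to MPP4. Of these genes, 1 was called in each of MPP1, MPP3 and MPP4 (Hist1h2bb in MPP1 and Hist1h2bj in the others, chosen after their values were seen).

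Among H1 genes, Hist1h1a, Hist1h1b and Hist1h1d differed widely between duplicates in MPP3 and MPP4. Hist1h1b was at 46.1 and 19.5 CPM in young and 103 and 24.0 in aged MPP3 (log2 fold change 1, SE 0.472, adjusted p 0.134), so the ages overlapped. In MPP4 it was at 58.2 and 22.1 CPM in young and 74.3 and 40.1 in aged cells (0.59, SE 0.466, adjusted p 0.391). In MPP3 and MPP4 of both ages the first library exceeded the second for Hist1h1a, Hist1h1b and Hist1h1d. Between libraries of the same number, Hist1h1b was higher in the aged one in MPP3 and in MPP4. The H1 sum had its first library above its second in both ages from HSCs to MEPs. In MPP4 it was 177 and 108 CPM in young and 251 and 141 in aged cells. CLPs showed the reverse in both ages, with 148 and 193 against 116 and 149. Hist1h1b did separate in MPP1 (28.6 and 21.6 against 51.0 and 32.8 CPM) and in MPP2 (67.5 and 56.5 against 110 and 88.8), at adjusted p of 0.344 and 0.315 by edgeR. Neither edgeR nor DESeq2 called any of the 5 H1 genes in the MPPs. From MPP1 to MPP4 an unadjusted p under 0.05 was found for 2, 2, 4 and 3 of them, with the share of all genes not counted. Hist1h1c was level with age there, with log2 fold changes between -0.14 and 0.11, and Hist1h1e had values from 0.39 to 0.87.

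The 8 members with under 10% of windows shared (Hist1h1a, Hist1h1b, Hist1h1c, Hist1h1d, Hist1h4d, Hist2h2be, Hist2h4 and Hist4h4) give counts that other copies can hardly reach. Of them, 7, 6, 7 and 6 had a log2 fold change above 0 from MPP1 to MPP4, with medians of 0.52, 0.44, 0.67 and 0.68. One of the 8, Hist1h4d, was called in MPP3 and in MPP4. Hist1h1a was at 6.47 and 5.77 CPM in young and 18.3 and 12.4 in aged MPP1, and at 11.6 and 13.5 against 29.6 and 19.2 in MPP2, without overlap, at adjusted p of 0.0694 and 0.149. It also parted the ages in HSCs, at 2.58 and 1.76 against 5.68 and 5.71 CPM (adjusted p 0.115). Among the members with at most 50% of windows shared, 5, 4, 7 and 8 of 34 were called in MPP1 to MPP4, and among those with more, 9, 8, 11 and 13 of 30. The first set includes Hist1h2ac, Hist1h2ae and Hist1h2ak, called in each MPP fraction. These belong to the H2a copies whose counts moved as one, so the split at 50% does not set such copies apart.

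**Figure D3:**
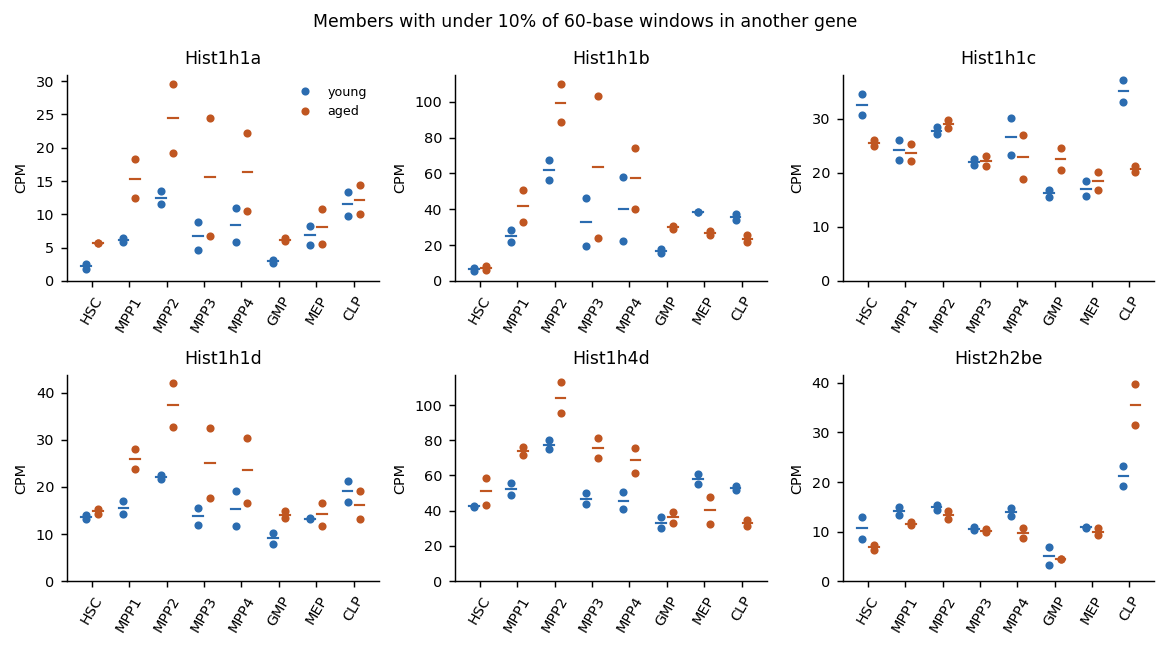
CPM (vertical axes, linear from 0) of 6 members with under 10% of windows shared, with 1 point per library and a short bar at the mean of the 2. Aged points of Hist1h1a and Hist1h4d lie above the young ones in MPP1 and MPP2, duplicates of Hist1h1b lie far apart in MPP3 and MPP4, and Hist1h1c and Hist2h2be part the ages in CLPs.

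Markers of other cell types moved in the MPPs as well. In MPP2 the neutrophil markers (5 of 5 called lower) summed to 702 and 742 CPM in young and 258 and 265 in aged cells, and in MPP3 (5 of 5 lower) to 1144 and 1140 against 179 and 242. Erythroid markers summed to 606 and 713 against 158 and 162 in MPP2 and to 657 and 771 against 163 and 144 in MPP3, with 3 of 5 called lower in both. In MPP1 the neutrophil sums overlapped (100 and 74.9 against 85.7 and 103) and the erythroid sums did not (641 and 321 against 151 and 300). There 0 of 5 markers were called in either list. In MPP4 the neutrophil sums (0 of 5 called) also overlapped, at 29.7 and 36.6 against 35.2 and 36.8. The erythroid sums (1 of 5 called lower) did not, at 243 and 334 against 85.2 and 166. The part of these markers in the histone results was not tested.

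In GMPs the summed level of all members did not part the ages (log2 difference 0.13, SD 0.18). It was 1293 and 1096 CPM in young and 1263 and 1351 in aged GMPs. By subfamily, the H3 sum (log2 difference 0.72, SD 0.18) and the H1 sum (0.54, SD 0.16) were higher in aged GMPs without overlap. The H2a, H2b and H4 sums overlapped in GMPs. There 3 members were called higher and 1 lower, beside 9.93% and 8.97% of all genes. Hist1h3e was counted 26 and 22 times in young and 44 and 48 times in aged GMPs (log2 fold change 1.28, SE 0.308, adjusted p 0.00323). Hist1h3d had a log2 fold change of 1.22 (adjusted p 0.00380), and the third, Hist3h2a, had 0.61 (adjusted p 0.00614). Hist1h2bc, whose annotated transcript is spliced, was lower, at 17.3 and 17.5 CPM in young against 10.2 and 11.8 in aged GMPs (log2 fold change -0.72, SE 0.162, adjusted p 0.00191). The H2a median was 0.09, and Hist1h2ag was at 120 and 101 against 103 and 111 CPM. Hist1h1b parted the ages, at 15.8 and 17.7 against 30.8 and 29.0 CPM, without passing the test (0.78, adjusted p 0.255). Leaving out the first young library left 2 members called, and leaving out any other left 1. Neutrophil markers (4 of 5 lower) summed to 222 and 224 CPM in young and 74.0 and 99.8 in aged GMPs, erythroid markers (4 of 5 lower) to 474 and 428 against 39.7 and 13.9, and their part was not tested.

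In MEPs the summed level was 1848 and 1958 CPM in young and 1656 and 1129 in aged libraries, 0.732 times as high, with a log2 difference of -0.45 and an SD of 0.4. The 2 aged libraries differed more from each other than the first did from the young ones. Hist1h2ag was at 176 and 184 CPM in young and 135 and 92.6 in aged MEPs (log2 fold change -0.66, SE 0.150, adjusted p 0.00188), and Hist1h2af fell by 0.67. Hist1h3d moved the other way, from 36 and 25 to 54 and 52 counts (log2 fold change 1.21, SE 0.295, adjusted p 0.00327). The H3 sum was likewise higher in aged MEPs without overlap (log2 difference 0.38, SD 0.23). The H2a, H2b and H4 sums were lower without overlap, and the H1 sums did not part the ages. In all, 1 member was called higher and 2 lower, beside 9.08% and 11.7% of all genes. Without the first aged library 13 members were called lower, and without the second aged library 0 were called. B cell markers (3 of 4 called lower) summed to 100 and 98.3 CPM in young and 0.801 and 0 in aged MEPs. Erythroid markers (0 of 5 called) summed to 668 and 584 against 257 and 266. Of the 9 sort antigens, 6 were called lower (median log2 fold change -1.89), with Cd48 at 50.6 and 50.7 against 12.7 and 14.5 CPM. The part of these in the result was not tested.

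CLPs showed the opposite direction to the MPPs. The summed level was 1960 and 2045 CPM in young and 1149 and 1280 in aged CLPs, 0.606 times as high (log2 difference -0.72, SD 0.12). Of 64 members, 11 were called, all lower, beside 4.73% of all genes lower and 5.71% higher. They were 10 H2a genes and Hist1h1c. Hist1h2ag was at 162 and 163 CPM in young and 80.4 and 89.2 in aged CLPs (log2 fold change -0.92, SE 0.151, adjusted p 1.79e-04). Hist1h1c was at 33.1 and 37.1 against 20.1 and 21.2 CPM (log2 fold change -0.75, SE 0.151, adjusted p 0.00132). Both genes were apart by more than their duplicates differed. Subfamily medians were -0.83 in H2a, -0.57 in H4, -0.33 in H3, -0.29 in H2b and -0.23 in H1, against 0 over all genes. The H2a, H3 and H4 sums were lower without overlap, and the H1 sums overlapped. The H2b sum went the other way, from 75.8 and 76.0 CPM in young to 79.5 and 81.5 in aged CLPs (log2 difference 0.09).

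Hist1h4d was at 53.8 and 52.0 CPM in young and 31.5 and 34.8 in aged CLPs, a log2 fold change of -0.66 that missed the threshold (adjusted p 0.0108). Hist2h2be went up in the counts, from 23.2 and 19.2 to 39.8 and 31.5 CPM, also short of it (0.77, SE 0.218, adjusted p 0.0159). DESeq2 called 1 H2b gene higher and 1 H4 gene lower in CLPs, beside 11 H2a genes and 1 H1 gene lower. Without the first aged CLP library 6 members were called. Markers of other cells differed strongly between these groups. Basophil and mast cell markers (4 of 4 lower) summed to 1612 and 1648 CPM in young and 7.07 and 11.6 in aged CLPs, with Prss34 at 0 counts in both aged libraries. Neutrophil markers (5 of 5 lower) summed to 513 and 517 against 134 and 77.6, and B cell markers (4 of 4 lower) to 1672 and 1725 against 693 and 724. Megakaryocyte markers (3 of 4 higher) summed to 37.0 and 34.4 against 95.6 and 149. Of the 9 sort antigens, 2 were called higher and 1 lower, and the Ly6a levels of these CLPs are given above. The part of these markers in the histone difference was not tested.

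Whether the age difference depended on the fraction was tested directly. Over all 8 fractions it differed in 19 of 64 members (29.7%), 14 of them H2a genes, a share below the 34.9% of all genes. The members as a set thus did not exceed the background in this test. The difference in CLPs was set against the mean of those in MPP1 to MPP4. In this contrast 35 members were called lower and 1 higher, beside 12.3% and 10.3% of all genes, and the member median was -1.23 against 0.04 over all genes. By subfamily the lower calls were 14 of 17 H2a, 10 of 12 H4, 7 of 12 H3, 3 of 18 H2b and 1 of 5 H1 genes. Hist1h2ag had a difference of -1.92 (SE 0.170, adjusted p 4.14e-08), Hist1h4d -1.27 (SE 0.195, adjusted p 3.27e-05), Hist1h3a -1.64 (SE 0.382, adjusted p 0.00200) and Hist1h1c -0.76 (SE 0.169, adjusted p 0.00138). The 1 member with a higher difference in CLPs was Hist2h2be, at 0.97 (SE 0.246, adjusted p 0.00398). Without the first young CLP library 23 members were called, and without the first aged one 22.

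**Figure D4:**
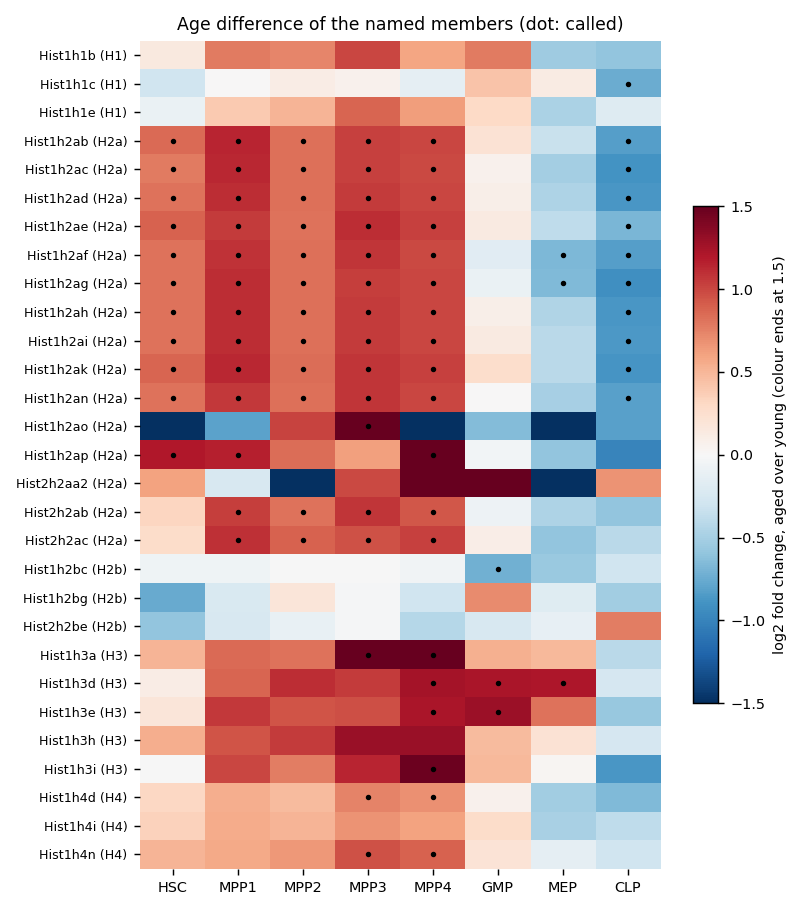
Log2 fold change of aged over young (colour, ending at 1.5 in either direction) for the named members in rows and the 8 fractions in columns, with a dot where the member was called. The 10 rows from Hist1h2ab to Hist1h2an are red with dots from HSCs to MPP4 and blue with dots in CLPs, while the colours of Hist1h2ao and Hist2h2aa2 jump between fractions.

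Near-identical copies exchanged counts between duplicates. Hist1h2ao and Hist1h2ap lie on chromosome 13 (chr13:21810465-21810944 and chr13:21833026-21833507). Hist1h2ao had 6 and 518 counts in young HSCs, where Hist1h2ap had 760 and 516. It had 112 and 1719 in young MPP4, against 3242 and 1714 for Hist1h2ap. In 3 libraries the pair was split to within 1 percentage point of even, while the median share of Hist1h2ao was 0.583%. The sum of the pair was steady, at 2.27 to 2.52 times Hist1h2ag over the 32 libraries with a CV of 3.03%.

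Taken alone, Hist1h2ao was called higher in aged MPP3 with a log2 fold change of 6.48. That value was 0.8 without the second aged MPP3 library. In MPP4 Hist1h2ao had a log2 fold change of -4.7 and was not called (adjusted p 0.0274 by edgeR). Hist1h2ap alone was called in HSCs, MPP1 and MPP4 but not in MPP2 or MPP3. With the counts of both genes summed before the fit, an alternative chosen after the data were seen, the pair was called higher in HSCs (0.81), MPP1 (1.14), MPP2 (0.84), MPP3 (1.01) and MPP4 (1.01), and lower in MEPs (-0.63, adjusted p 0.00268) and CLPs (-0.99). In GMPs the pair had a log2 fold change of -0.05 (adjusted p 0.903).

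Hist2h2aa1 and Hist2h2aa2 on chromosome 3 showed the same exchange. Hist2h2aa2 had at most 5 counts in 18 libraries and exactly the count of Hist2h2aa1 in 6. Its 2 libraries held 2 and 343 counts in young HSCs, 450 and 2 in aged MPP1, 295 and 2 in young MPP3 and 2 and 599 in aged MPP4. Here the sum of the pair was not steady, with a CV of 52.0% relative to Hist1h2ag. Hist2h3c1 and Hist2h3c2 had equal counts in 27 libraries.

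**Figure D5:**
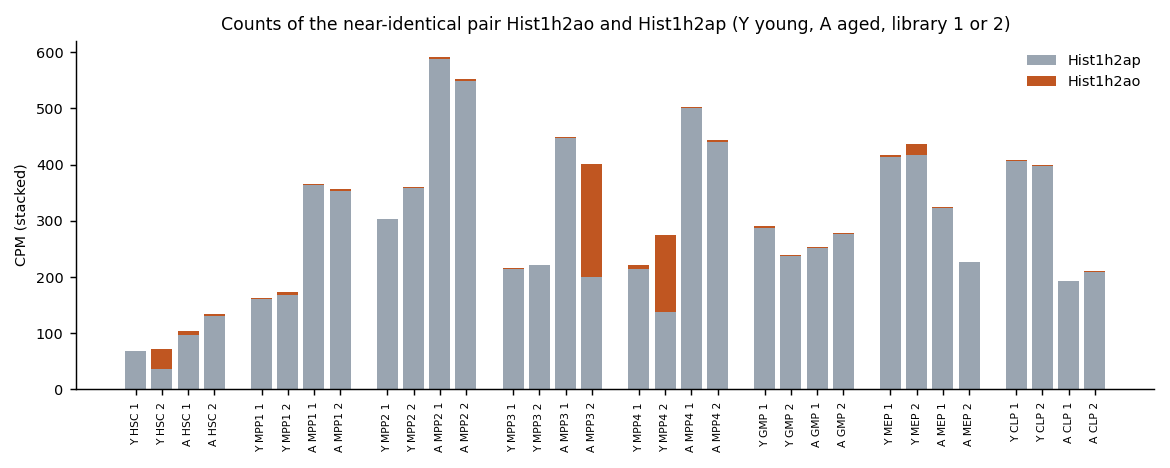
CPM of Hist1h2ap (grey) and Hist1h2ao (orange), stacked, in each of the 32 libraries, ordered by fraction, age and library number. The second young HSC, second young MPP4 and second aged MPP3 libraries are split evenly. In these groups the stacked heights of the duplicates are 68.1 and 72.7, 222 and 275, and 450 and 402 CPM. Those of aged MEPs differ more, at 325 and 227 CPM.

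Other genes of histone supply and of S phase were read from lists, whose counts stand beside the shares of all genes called given above, from 3.74% higher and 1.66% lower in HSCs to 9.08% and 11.7% in MEPs. Of 43 S phase genes, 14 were called higher in aged HSCs and 37, 8, 35 and 25 from MPP1 to MPP4, and 21 were called lower in CLPs. In GMPs 3 were higher and 15 lower, and in MEPs 15 were lower. The list includes genes of the next lists, such as Slbp. Its medians were 0.34 for HSCs, 0.57, 0.26, 0.49 and 0.41 for MPP1 to MPP4, and -0.26, -0.2 and -0.38 for GMPs, MEPs and CLPs in turn. Rrm2, a subunit of ribonucleotide reductase, was called in all 8 fractions, higher in HSCs (0.94) and MPP1 to MPP4 (0.51 to 1.06) and lower in GMPs (-0.29), MEPs (-0.5) and CLPs (-0.55).

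Of 12 genes of histone transcription and 3′ end processing, 2 were called higher in MPP1, 2 in MPP3 and 4 in MPP4. For GMPs 2 were higher and 3 lower, for MEPs 2 and 2, and 1 was lower in CLPs. Slbp was called higher in MPP1 (0.34), MPP3 (0.45) and MPP4 (0.33) and lower in GMPs (-0.59), MEPs (-0.32) and CLPs (-0.35). Of 21 histone chaperones, 7, 6, 7 and 12 were called higher from MPP1 to MPP4 and 1 lower in MPP3. In HSCs 3 were higher and 1 lower. GMPs had 4 higher and 4 lower, MEPs 3 higher and 2 lower, and CLPs 3 lower. Nap1l1, a carrier of H2A and H2B, was called in all 8 fractions, higher in HSCs (0.36) and MPP1 to MPP4 (0.38 to 0.49) and lower in GMPs (-0.39), MEPs (-0.35) and CLPs (-0.47). The chaperone Asf1b was called higher in HSCs (0.63) and in MPP1 to MPP4 (0.41 to 0.73) and lower in CLPs (-0.53).

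Replacement histones are encoded by genes outside the clusters, mostly with ordinary tailed transcripts. Of 11 such genes, 2 were called higher in MPP1 and MPP2 and 3 in MPP3 and MPP4, with 1 called lower in MPP1 and 2 in MPP4. H2afz, which encodes the variant H2A.Z, was called higher in HSCs (0.53) and MPP1 to MPP4 (0.55 to 0.76) and lower in GMPs (-0.41) and CLPs (-0.51). In CLPs 8 of the 11 were called lower. H2afx was called higher in MPP1 to MPP4 (0.42 to 0.62) and in GMPs (0.49) and lower in CLPs (-0.54).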

How the data were processed

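RNA-seq was analysed from the deposited gene table of raw counts, made by the authors with TopHat2 2.0.13, Bowtie2 2.1.0 (mm10) and StringTie from single reads of 60 bases. No use of strand and no molecular identifiers were stated, and StringTie divides reads among genes that could have given them. The authors' normalized table and comparison tables (fold changes, p-values) were not used. Libraries were grouped by their titles. Counts were fitted with edgeR 4.0.16 (R 4.3.3): TMM, filterByExpr (14154 genes), 1 mean per group over all 32 libraries, two-sided quasi-likelihood F-tests, Benjamini-Hochberg adjustment over all genes within a comparison, calls at an adjusted p under 0.01. The script was tested on simulated data. Sums are counts over the library total and carry no test.

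Named members were the 3 with the highest CPM per kb in each subfamily, those called in at least 3 age comparisons, the smallest adjusted p in each direction per fraction, and those whose duplicates differed over 10-fold with at least 100 counts in the higher. Listed genes were named when called in at least 4 age comparisons, at most 4 a list. Members and lists were chosen with earlier results of these data known. Gene models and windows came from GENCODE M21 (all 67 members matched). Alternatives were DESeq2 1.42.0, its size factors, no filter, another threshold, a replicate block, fits of 4 libraries, leaving out libraries and, added later, merged copies.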

Additional observations from a re-analysis of the deposited data

Results flagged for a closer look

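Results are listed here because the test of the difference between fractions passed the threshold. The age difference differed among the 8 fractions in 19 of 64 members (29.7%), a share below the 34.9% of all genes. Between CLPs and the mean of MPP1 to MPP4 it differed in 36 (56.2%), beside 22.6% of all genes. In the latter contrast (log2, edgeR) the difference was -1.83 in Hist1h2ab, -1.9 in Hist1h2ac, -1.87 in Hist1h2ad, -1.69 in Hist1h2ae, -1.83 in Hist1h2af, -1.92 in Hist1h2ag and -1.86 in Hist1h2ah. It was -1.86 in Hist1h2ai, -1.9 in Hist1h2ak, -1.81 in Hist1h2an, -2.02 in Hist1h2ap, -1.55 in Hist2h2ab and -1.4 in Hist2h2ac. Outside H2a it was -0.76 in Hist1h1c, -1.64 in Hist1h3a, -1.32 in Hist1h3d, -1.62 in Hist1h3e, -1.96 in Hist1h3i, -1.27 in Hist1h4d, -0.96 in Hist1h4i, -1.07 in Hist1h4n and 0.97 in Hist2h2be. Basophil and mast cell markers differed in the same contrast (3 of 4 lower, median -6.49), and their part was not tested.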

How the results depend on the processing

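No log2 fold change of a called named member changed its sign under the alternatives run for single genes. Direction was not checked for counts that moved or for summed differences. Counts of members called that moved by over 1.5 times were as follows, and the cause was not tested. At an adjusted p under 0.05, a looser threshold, 34 (MPP3), 35 (MPP4), 7 (GMP) and 11 (MEP) members were called, and 32 in the test among 8 fractions. Fits of the 4 libraries of a fraction, which have fewer samples, called 0 in HSCs, 21 in MPP2, 11 in MPP4 and 1 in MEPs. In MEPs DESeq2 called 11, its size factors gave 6 and no filter on low counts gave 8. Over all genes, library numbers did not pair the samples, with correlations of -0.06 to 0.07 between same-numbered young and aged libraries. Over members alone the correlations were -0.28 to 0.36. The H1 sum did follow the library number. Its first library was the higher in both ages from HSCs to MEPs, and its second in both ages of CLPs. A replicate block gave 0, 12, 12, 17, 15, 2, 3 and 10 members in the order HSC, MPP1, MPP2, MPP3, MPP4, GMP, MEP and CLP, 52 among young fractions, 18 in the test among 8 fractions and 27 for CLPs against MPPs. Summed differences (log2) that moved were those over members with at most 50% of windows shared, 0.17 in HSCs, 0.69 in MPP1 and -0.51 in CLPs, and in MPP1 0.94 with TMM and 0.85 without Hist1h2ap.

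Leaving out 1 library at a time gave, in the same order, 0 to 11, 9 to 12, 0 to 10, 11 to 20, 11 to 16, 1 to 2, 0 to 13 and 6 to 10 members, 53 to 58 among young fractions, 16 to 22 in the test among fractions and 22 to 39 for CLPs against MPPs. The summed differences ran from 0.28 to 0.51, 0.88 to 0.92, 0.63 to 0.84, 0.81 to 1.0, 0.63 to 0.96, 0.02 to 0.25, -0.75 to -0.2 and -0.8 to -0.65 in that order again. Of 110 calls of named members, DESeq2 lost 1, its size factors 1, no filter 4 and the block 27. Fits of 4 libraries lost 32 of 88 such calls, and leaving out 1 library lost 138 of 792. Depth limits members with few counts, such as the H3 genes at 4.81 CPM or less.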
